A study of Mus musculus with 9 samples.

Results

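The change in ovarian transcripts from postnatal day 15 (PD15) to PD16 was read by comparing the 3 PD16 libraries with the 3 PD15 libraries, 6 of the 9 libraries of a series that also holds 3 PD14 libraries. The mice were Kunming, an outbred stock, and no group carried a transgene or a treatment, so that the groups differed in age, 15 or 16 days after birth. The labels call the source granulosa cells and the tissue ovary, whereas the methods of the study describe RNA from collected ovaries, with 3 independent ovaries a day. Nothing says from how many animals or litters they came, so the p-values measure the spread between these samples. Levels are deposited FPKM (fragments per kilobase of exon, scaled to the mapped fragments of the library), and changes are differences of mean log2(FPKM + 1), PD16 minus PD15. Of 52025 genes in the tables, 15237 had a mean FPKM above 1 on PD15 or PD16 and were tested, 12377 of them protein-coding.

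Around this age the largest follicles of the first growing wave begin to gather fluid between their granulosa cells, and the antrum forms. The oocyte meanwhile stores transcripts and proteins for the embryo and lays down the zona pellucida, its glycoprotein coat. Granulosa cells respond to follicle-stimulating hormone (FSH) and to growth factors of the TGF-beta family from the oocyte and from each other, and theca cells outside the basal lamina make androgens.

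Genes of all these compartments were present in all 6 libraries. Summed FPKM of 22 granulosa cell markers were 4240, 3907 and 4139 at PD15 and 4266, 4629 and 3956 at PD16. Summed FPKM of 33 oocyte markers were 3528, 3384 and 3580 at PD15 and 2560, 2620 and 2741 at PD16, so that no PD16 library reached the lowest PD15 library. Those of 19 theca and interstitial cell markers were 1794, 1890 and 2479 at PD15 and 2376, 1988 and 1855 at PD16. With oocyte markers at these levels the libraries hold more than granulosa cells. Most of the theca and interstitial sum came from 1 gene, Hsd3b1, whose levels are given below. Depth, recovered from the step that 1 fragment makes in low FPKM, ran from 23.8 to 28.7 M fragments at PD15 and from 22.7 to 25.4 M at PD16. Across genes, Pearson correlations of log2(FPKM + 1) were 0.985 to 0.990 between libraries of a day and 0.980 to 0.984 between the days.

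Few genes changed past the threshold over this day, and the falls included the largest change of a protein-coding gene, that of the progesterone-inactivating enzyme gene Akr1c18. In limma, with an adjusted p below 0.05 as the threshold, 68 of the 15237 genes rose (0.446%) and 49 fell (0.322%). Of the 12377 protein-coding genes, 50 rose (0.404%) and 26 fell (0.210%). In all 76 of these the PD15 and PD16 libraries did not overlap, against 9.97% of all genes tested whose PD16 libraries were all above the PD15 libraries and 9.80% whose PD16 libraries were all below. The calls were made on these same libraries, so the lack of overlap, here and for single genes below, is no separate support. Most changes were below 2-fold on this scale, since 9 protein-coding rises and 5 falls reached a log2 change of 1 in size. The median 95% interval of a gene, not adjusted for the number of genes, reached 0.20 on either side of its log2 change, and the smallest called change of a protein-coding gene was 0.34 (Atp10a). Of all genes tested, 53.4% had a higher mean at PD16, and 6.88% were higher and 7.45% lower at an unadjusted p under 0.05, shares against which the counts of the gene lists can be read. With called shares as small as 0.446% and 0.322%, 1 called member puts any of the lists above them.

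The number of calls depended on single libraries. Without PD15 replicate 1, 8 of the 76 protein-coding calls remained, among them Akr1c18, Akr1c19, Rln3, Fam210a, Gm9961, Gm21887 and AC125149.4. Without PD15 replicate 2 there remained 17, without PD15 replicate 3 there remained 24, and without PD16 replicates 1, 2 and 3 there remained 12, 31 and 24. In all 6 of these fits 7 genes passed, Akr1c18, Akr1c19, Rln3, Fam210a, Gm9961 and AC125149.4 among them, whereas 27 of the 76 passed in none. The direction of all 76 was the same in every alternative fit in which the gene was tested. As the libraries of these genes did not overlap, leaving out a library could not have changed it.

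**Figure D1:**
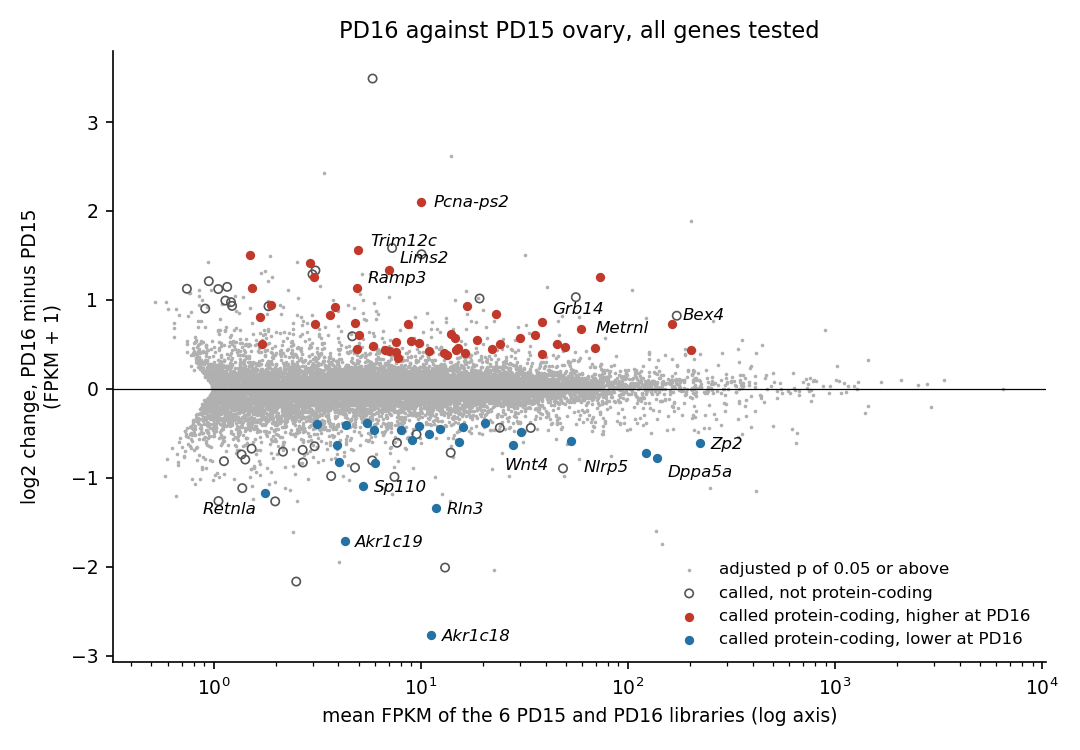
Log2 change from PD15 to PD16 (vertical axis) against the mean FPKM of the 6 libraries (horizontal log axis) for the 15237 genes tested. Red and blue points are the 50 protein-coding genes that rose and the 26 that fell, open circles the called genes of other kinds, and grey points the rest, with Akr1c18 at -2.76 as the lowest point.

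Akr1c18 encodes 20-alpha-hydroxysteroid dehydrogenase, which turns progesterone into a weakly active product, and Akr1c19 encodes an aldo-keto reductase from the same gene cluster on chromosome 13. Both fell steeply. Akr1c18 (ENSMUSG00000021214, chr13:4132615-4150654, mm10) stood at 17.9, 19.7 and 23.2 FPKM in the PD15 libraries and at 1.95, 2.55 and 1.89 in the PD16 libraries, a 9.51-fold drop in the mean. The 3 PD15 libraries were all high and the 3 PD16 libraries all low, with PD14 in between at 10.5, 4.73 and 8.95 (log2 change -2.76, SE 0.23, adjusted p = 0.00143, n = 3 per day, limma). Akr1c19 (ENSMUSG00000071551, chr13:4228700-4252843) went from 5.90, 6.46 and 9.03 to 1.53, 1.30 and 1.52 FPKM (log2 change -1.71, SE 0.13, adjusted p = 0.00143). Its PD14 libraries, at 1.67, 1.72 and 1.59, were close to those of PD16, so that PD15 was the high day for both genes. These genes belong to a family of close copies, and how the counting shared reads between the copies is not given in the sources used here. The calls held under every alternative, with adjusted p from 8.93e-05 to 0.0142 for Akr1c18 and from 4.03e-04 to 0.0123 for Akr1c19.

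The promoters of this pair are shown because the genes lie in the same cluster and fell together. Each is the 250 bases before the RefSeq start (GRCm38.p6), on the strand of the gene, at chr13:4150647-4150896 on the minus strand for Akr1c18 and at chr13:4233490-4233739 on the plus strand for Akr1c19. Capitals mark matches on either strand to TTCNNNGAA, the form of a STAT site, AGGTCA, a nuclear receptor half-site, TGACG, a cyclic AMP response half-site, and CANNTG, an E-box.
Akr1c18: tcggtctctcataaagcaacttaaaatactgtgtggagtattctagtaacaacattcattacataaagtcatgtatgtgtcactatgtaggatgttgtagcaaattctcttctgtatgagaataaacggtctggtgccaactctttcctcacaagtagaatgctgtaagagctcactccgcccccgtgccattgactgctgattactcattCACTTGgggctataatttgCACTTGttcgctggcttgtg
Akr1c19: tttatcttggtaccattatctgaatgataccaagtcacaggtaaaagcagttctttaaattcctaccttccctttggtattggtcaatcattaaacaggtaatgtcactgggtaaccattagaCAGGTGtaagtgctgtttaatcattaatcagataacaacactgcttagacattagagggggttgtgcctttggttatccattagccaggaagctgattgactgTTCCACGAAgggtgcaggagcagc
The only matches were 2 E-boxes in Akr1c18, and 1 E-box and 1 STAT form, TTCCACGAA, in Akr1c19. Of 32851 promoters of this length in the RefSeq table, 66.2% held an E-box, 7.02% TTCNNNGAA, 14.0% AGGTCA and 17.8% TGACG.

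No other gene of steroid hormone synthesis passed the test. Of 18 genes of that list tested, 10 had a higher mean at PD16, and Akr1c18 was the called member. In the fit without PD16 replicate 2, 1 gene of the list was called higher. Hsd3b1, which makes progesterone and is among the most abundant transcripts of the ovary, stood at 1291 ± 309 FPKM (SD, n = 3) at PD15 and 1273 ± 205 at PD16. Cyp17a1, the androgen-forming enzyme of theca cells, had a mean of 21.6 FPKM at PD15 and 37.1 at PD16 (log2 change 0.70, 95% interval 0.20 to 1.19) with an adjusted p of 0.185. Cyp11a1, which starts the pathway from cholesterol, had a log2 change of 0.30 with a wide interval of -0.44 to 1.04, and Cyp19a1, the aromatase of granulosa cells, stayed low at 2.94 and 2.37 FPKM.

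Oocyte transcripts were lower at PD16. All 33 oocyte markers tested had a lower mean at PD16 than at PD15, with a median log2 change of -0.30 against 0.0097 over all genes tested. In 22 of the 33 the PD16 libraries were all below the PD15 libraries, where 9.80% of all genes were. The 2 called members, 6.06% of the list against 0.322% of all genes, were Nlrp5 and Zp2. Nlrp5 (chr7:23385889-23441922), a component of the subcortical maternal complex that the embryo needs, fell from 153, 144 and 162 to 82.3, 93.9 and 101 FPKM (log2 change -0.72, SE 0.13, adjusted p = 0.0425). Zp2 (chr7:120126772-120145291), a zona pellucida glycoprotein to which sperm bind, fell from 258, 254 and 292 to 171, 171 and 185 FPKM (log2 change -0.61, SE 0.10, adjusted p = 0.0417). The PD15 and PD16 libraries of both genes were well apart, while the PD14 libraries, at 109, 78.7 and 84.5 FPKM for Nlrp5 and 236, 197 and 248 for Zp2, lay near PD16 for Nlrp5 and between the days for Zp2.

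Other members had the same direction without passing the adjusted threshold. The zona gene Zp3 had a mean of 401 FPKM at PD15 and 276 at PD16 (log2 change -0.54, 95% interval -0.76 to -0.31, adjusted p = 0.0518). Padi6, another maternal complex gene, had 418 and 293 (log2 change -0.51, -0.75 to -0.27). Gdf9, the oocyte growth factor that acts on granulosa cells, had 260.2 and 212 (log2 change -0.29, -0.53 to -0.051), whereas its partner Bmp15 was level at 65.6 and 65.4 (-0.0041, -0.19 to 0.18). Bmp15 was thus the member nearest to no change, and the drop was not uniform over the list. Summed marker FPKM of the PD14 libraries, 3208, 2674 and 3327, were all below those of PD15 and overlapped with PD16. In whole ovaries, fewer oocytes, less RNA per oocyte and a growing share of other cells cannot be told apart.

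The promoters of 3 oocyte genes are shown since the zona and maternal complex genes were lower together while Bmp15 was level. They are again the 250 bases before the RefSeq start, at chr5:135979855-135980104 on the plus strand for Zp3, chr4:140742644-140742893 on the minus strand for Padi6 and chrX:6320725-6320974 on the minus strand for Bmp15, with the same motifs in capitals.
Zp3: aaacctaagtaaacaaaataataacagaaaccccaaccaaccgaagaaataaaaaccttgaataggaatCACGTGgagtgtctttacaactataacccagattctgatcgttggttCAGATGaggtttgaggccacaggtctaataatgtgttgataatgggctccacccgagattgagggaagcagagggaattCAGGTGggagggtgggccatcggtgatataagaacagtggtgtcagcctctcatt
Padi6: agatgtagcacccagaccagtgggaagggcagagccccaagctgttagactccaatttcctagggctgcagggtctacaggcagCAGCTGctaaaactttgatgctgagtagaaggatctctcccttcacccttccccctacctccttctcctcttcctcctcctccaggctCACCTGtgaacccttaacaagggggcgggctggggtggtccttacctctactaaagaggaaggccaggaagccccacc
Bmp15: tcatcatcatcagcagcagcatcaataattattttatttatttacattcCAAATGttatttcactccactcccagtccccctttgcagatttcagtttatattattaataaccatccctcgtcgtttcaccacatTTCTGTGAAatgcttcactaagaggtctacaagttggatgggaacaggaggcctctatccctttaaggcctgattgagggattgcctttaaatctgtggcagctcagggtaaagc
Zp3 held 3 E-boxes, the first base of CACGTG lying 181 bases before the start, Padi6 held 2, and Bmp15 held 1 with 1 STAT form. The oocyte factor FIGLA binds E-boxes of zona genes with its partners, and a match of letters is no measure of binding.

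A wider list of 48 maternal storage genes, which shares members with the marker list, had 40 lower means and a median log2 change of -0.26. In 28 members the PD16 libraries were all below PD15 (58.3%, against 9.80% of all genes). Nlrp5 was its called member (2.08%, against 0.322% of all genes). Among the called genes outside these lists, 3 are known from oocytes and early embryos. Dppa5a, a pluripotency-associated RNA-binding protein, fell from 172, 155 and 197 to 100.4, 96.2 and 106 FPKM (log2 change -0.78, adjusted p = 0.0303). Pou5f1, the transcription factor OCT4, fell from 13.6, 15.5 and 14.3 to 9.54, 11.2 and 10.4 FPKM (log2 change -0.45, adjusted p = 0.0422), and Khdc1a, one of several close copies, fell from 36.4, 33.2 and 38.0 to 24.2, 25.1 and 26.6 FPKM (log2 change -0.48, adjusted p = 0.0479). Their libraries did not overlap between the days. The call of Dppa5a held without PD15 replicate 2 and was lost without each of the other 5 libraries, and those of Nlrp5, Zp2, Pou5f1 and Khdc1a were lost without any of the 6, with adjusted p up to 0.135, 0.132, 0.130 and 0.150. The direction over the list did not rest on 1 library, since 31 to 33 of the 33 markers stayed lower when a PD15 or PD16 library was left out, with medians from -0.32 to -0.28.

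**Figure D2:**
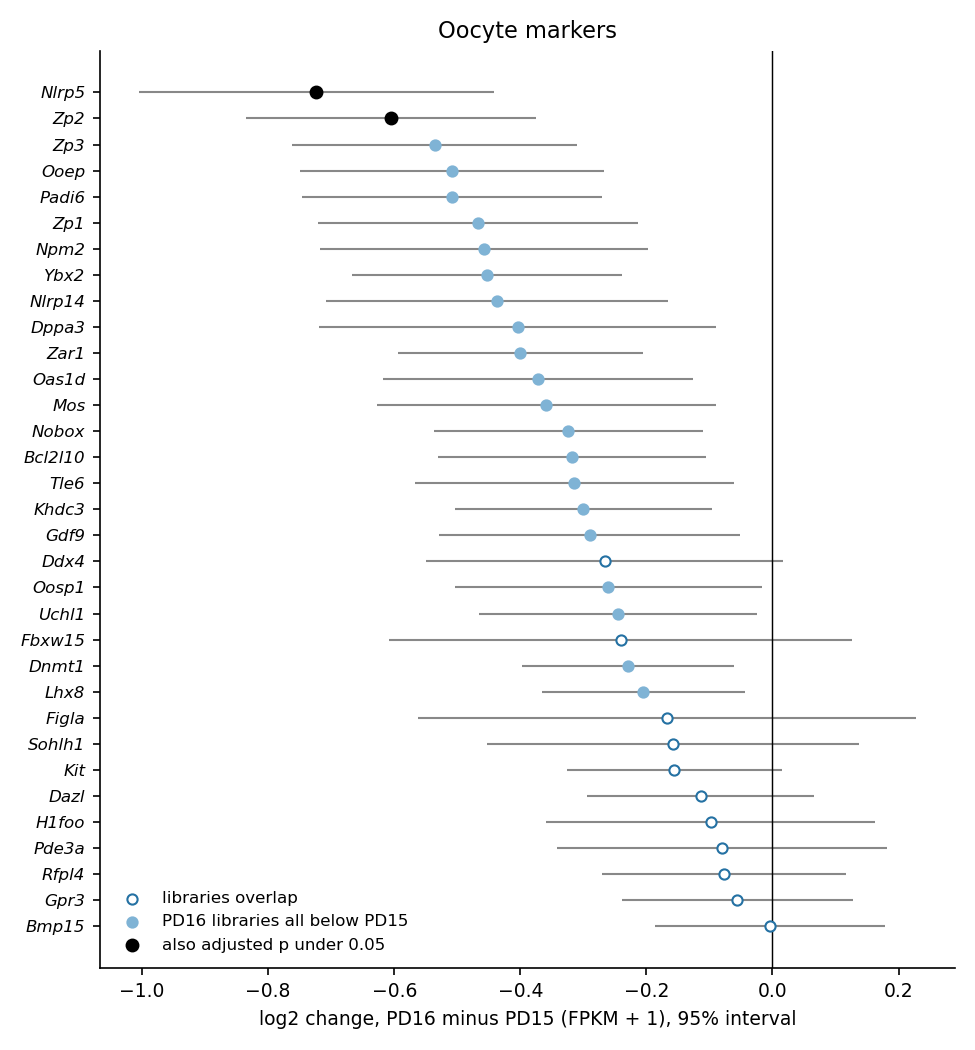
Log2 change from PD15 to PD16 with its 95% interval for the 33 oocyte markers tested, ordered by size. Every point lies at or below 0, filled points are genes whose PD16 libraries are all below the PD15 libraries (22 genes), and black points are Nlrp5 and Zp2, which passed the adjusted threshold.

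Regulators of gonadal differentiation and the cell cycle were also among the falls. Wnt4 (chr4:137277489-137299726), a ligand needed for ovarian differentiation, fell from 39.9, 29.9 and 32.7 to 19.1, 23.3 and 22.2 FPKM, with PD14 at 35.4, 31.8 and 38.4 (log2 change -0.63, SE 0.12, adjusted p = 0.0468). It was the only called gene of 34 Wnt pathway genes tested (2.94%, against 0.322% of all genes). Of the 34, 15 had a higher and 19 a lower mean (median -0.023, -0.0040 without PD16 replicate 1). Another ligand, Wnt6, chosen after its values were seen, had means of 30.7 and 22.3 FPKM (log2 change -0.44, -0.73 to -0.16, adjusted p = 0.152), while the Wnt target gene Axin2 had 8.25 and 7.11 (-0.18, -0.38 to 0.0077). Emx2, a homeobox factor needed to form the gonad, fell from 18.5, 17.5 and 19.4 to 13.0, 13.9 and 13.6 FPKM (log2 change -0.43, adjusted p = 0.0370). Cdkn1c, the cell cycle inhibitor p57, fell from 9.73, 9.07 and 9.47 to 6.53, 6.68 and 6.52 FPKM (log2 change -0.46, adjusted p = 0.0299). It was the only called gene among 14 cell cycle inhibitors, D cyclins and their kinases (7.14%, against 0.322% of all genes). The groups were apart in each, and all 3 calls were lost without any of the 6 libraries, with adjusted p up to 0.143, 0.125 and 0.109. Of the exon bases of Cdkn1c, 30.7% are shared with a gene on the other strand, and the library kit does not mark strand.

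Rln3 (chr8:84042929-84045000), a hormone of the relaxin family, had the third largest fall of a called protein-coding gene, from 18.5, 17.5 and 16.2 to 6.29, 7.02 and 5.58 FPKM with PD14 at 9.85, 8.23 and 10.1 (log2 change -1.34, SE 0.096, adjusted p = 0.00143), and its call held in every alternative fit. Retnla, a secreted product of alternatively activated macrophages, went from 3.55, 2.81 and 2.15 to 0.421, 0.737 and 0.920 FPKM (log2 change -1.18, adjusted p = 0.0268), at an estimated 6.01 fragments in its lowest library. Sp110, a nuclear body protein of a copy-rich locus, went from 8.73, 7.08 and 6.76 to 2.43, 2.66 and 4.05 FPKM (log2 change -1.09, adjusted p = 0.0315). Retnla and Sp110 stood higher at PD15 than at PD14 as well, with PD14 at 0.409, 0.623 and 0.246 and at 2.91, 2.17 and 3.50 FPKM. The remaining named falls were smaller. The fatty acid transporter Slc27a6, the acetyltransferase-like gene Nat8f4, the ferritin receptor Scara5, the Ras exchange factor Rasgef1b and Lurap1l had log2 changes of -0.83, -0.82, -0.60, -0.57 and -0.64, and Atp5e, the epsilon subunit of ATP synthase, had -0.59. The motor protein Myo5b, the photoreceptor disc component Prcd, the quinone reductase Nqo1, the zinc finger gene Zfp867 and the adhesion protein Tns3 had log2 changes of -0.42, -0.41, -0.40, -0.39 and -0.38, and the predicted genes Gm6768 and Gm5065 had -0.51 and -0.46. Of these 13, Rasgef1b kept its call in 4 of the 6 fits without a library and the others in 0 or 1, as did Sp110, while Retnla kept it in 2.

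**Figure D3:**
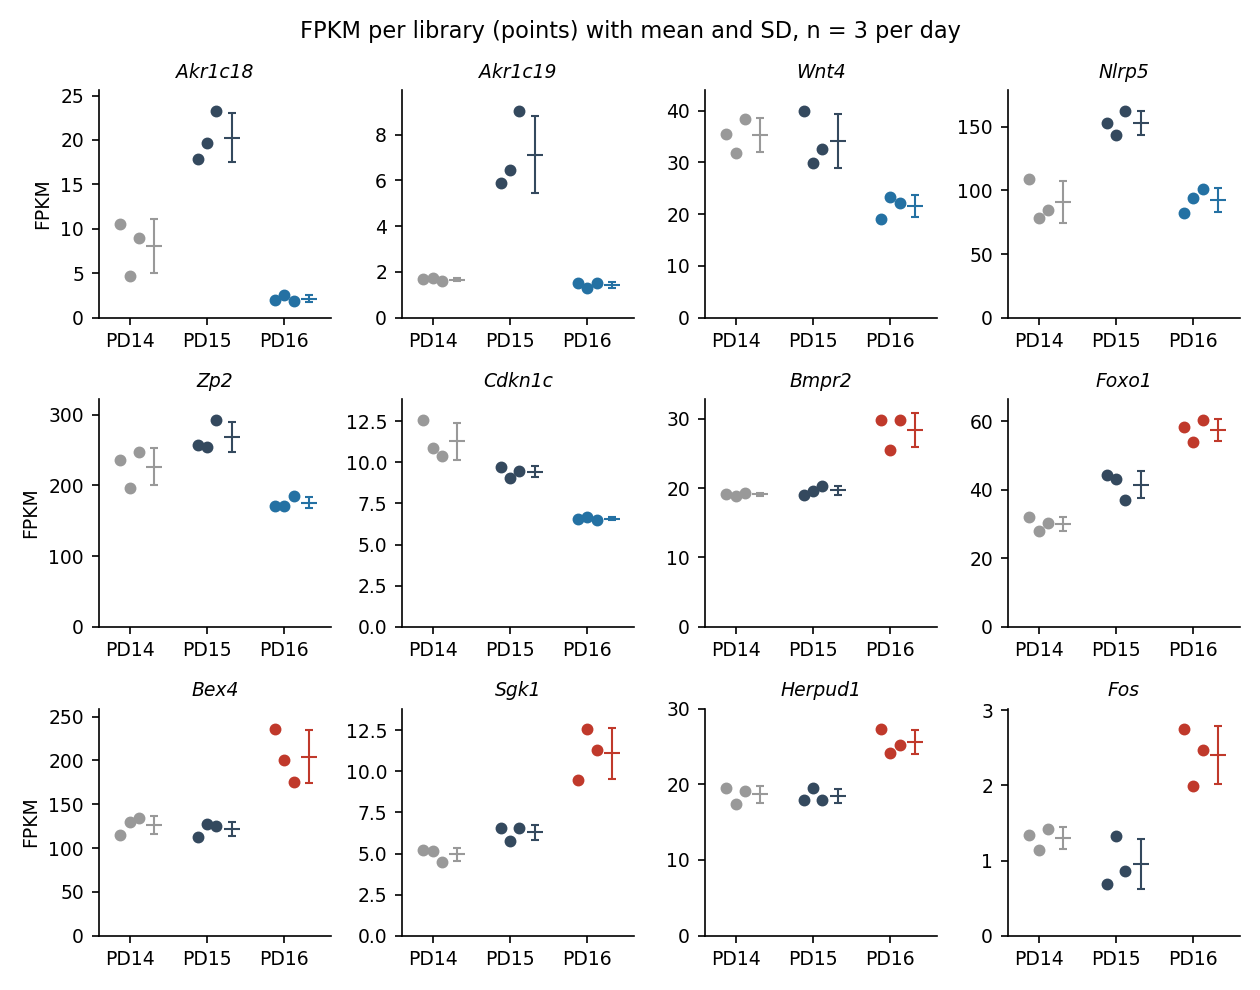
FPKM in each library of PD14, PD15 and PD16 (vertical axes, each from 0) for 12 called genes, with the mean and SD of the 3 libraries of a day beside the points. Akr1c18, Akr1c19, Wnt4, Nlrp5, Zp2 and Cdkn1c fell from PD15 to PD16 and Bmpr2, Foxo1, Bex4, Sgk1, Herpud1 and Fos rose, without overlap of the 3 PD16 and 3 PD15 libraries in any of them.

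Granulosa cell markers split. Of 22 tested, 10 had a higher and 12 a lower mean at PD16 (median -0.041, 0.0076 without PD15 replicate 1), and Bex4 was the called member. Bex4 (chrX:136138996-136140443), a small protein abundant in these ovaries, rose from 113, 127 and 125 to 236, 201 and 176 FPKM (log2 change 0.73, SE 0.11, adjusted p = 0.0306). Its PD14 libraries, at 115, 129 and 134, were level with PD15, so that the step came between PD15 and PD16. In 6 markers, Bex4 included, the PD16 libraries were all above PD15 (27.3%, against 9.97% of all genes). In 4 they were all below (18.2%, against 9.80%). The former held Fshr, the FSH receptor (12.8 ± 0.482 FPKM at PD15 and 17.9 ± 2.94 at PD16, SD, n = 3), the activin-binding protein Fst, the estrogen receptor Esr2, the gap junction protein Gja1 and the nuclear receptor Nr5a2. The latter held the transcription factors Gata4 and Foxl2, the KIT ligand Kitl, with means of 51.5 and 38.9 FPKM, and Kctd14, with 242 and 176. None of these 9 passed the adjusted threshold, and their adjusted p ran from 0.0615 for Gata4 to 0.344 for Nr5a2. The hormone genes Inha and Amh, among the most abundant of the list, had log2 changes of 0.099 (95% interval -0.29 to 0.49) and 0.020 (-0.17 to 0.21). Without PD16 replicate 3 the call of Bex4 held, and without each of the other 5 libraries it was lost (adjusted p up to 0.118). In the fit without PD15 replicate 3, and in that without PD16 replicate 2, 1 marker was called lower.

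In the TGF-beta family a BMP receptor rose. Bmpr2 (chr1:59763400-59879014), a type II receptor for BMPs and for the oocyte factors, rose from 19.0, 19.6 and 20.3 to 29.8, 25.5 and 29.8 FPKM with PD14 at 19.2, 18.9 and 19.3 (log2 change 0.50, SE 0.066, adjusted p = 0.0205), and the call held in 3 of the 6 fits without a library, being lost without PD15 replicates 1 and 2 and PD16 replicate 1. It was the only called gene of 43 tested (2.33%, against 0.446% of all genes), of which 28 had a higher mean (median 0.054, 0.019 without PD15 replicate 1). In 10 the PD16 libraries were all above PD15 (23.3%, against 9.97% of all genes), and in 2 all below (4.65%, against 9.80%). In the fit without PD16 replicate 2, 2 genes of the list were called higher. The type I receptor Bmpr1b, chosen after its values were seen, had means of 19.6 and 27.2 FPKM (log2 change 0.44, 0.25 to 0.64, adjusted p = 0.0578). Gdf10, a secreted ligand of the same family outside this list, rose from 2.22, 2.20 and 2.61 to 4.57, 6.57 and 4.94 FPKM (log2 change 0.92, adjusted p = 0.0350), with PD14 at 5.21, 4.18 and 3.33, so that PD15 was its low day. Its call was lost without any of the 6 libraries (adjusted p up to 0.125).

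Of 16 genes of gonadotropin and cyclic AMP signalling, 12 had a higher mean at PD16 and none was called, with 3 higher and 1 lower at an unadjusted p under 0.05 in limma (median 0.16, 0.089 without PD16 replicate 3). Foxo1 (chr3:52268336-52353221), a transcription factor held in check by FSH and insulin signals in granulosa cells, rose from 44.2, 43.2 and 36.9 to 58.1, 54.0 and 60.3 FPKM, with PD14 at 31.9, 27.8 and 30.4 (log2 change 0.47, SE 0.083, adjusted p = 0.0452). Sgk1, a kinase that FSH induces in granulosa cells, rose from 6.56, 5.75 and 6.54 to 9.48, 12.6 and 11.3 FPKM (log2 change 0.73, adjusted p = 0.0216). Both rises were seen in every PD16 library. Grb14, an adaptor that dampens insulin receptor signalling, rose from 26.1, 27.6 and 30.6 to 56.7, 38.8 and 49.7 FPKM (log2 change 0.75, adjusted p = 0.0344). Foxo1 was also the called gene among 23 genes of apoptosis and follicle atresia. Of these, 17 had a higher mean (median 0.056, 0.014 without PD16 replicate 2). The adjusted p reached 0.136, 0.0783 and 0.125 over the alternatives, and leaving out any of the 6 libraries ended the call of Foxo1, whereas Sgk1 kept it in 3 of the 6 fits and Grb14 in 1.

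Immediate-early genes, the first to respond to a stimulus, counted 21 of 27 with a higher mean (median 0.098) and 2 called (7.41%, against 0.446% of all genes). Fos rose from 0.685, 1.32 and 0.858 to 2.75, 1.99 and 2.47 FPKM with PD14 at 1.34, 1.14 and 1.42 (log2 change 0.81, adjusted p = 0.0422), at low levels throughout, and Klf6 rose from 10.9, 11.6 and 10.7 to 14.2, 14.2 and 16.3 FPKM (log2 change 0.40, adjusted p = 0.0479). The 3 PD16 libraries exceeded the 3 PD15 libraries in both. Fos kept its call in 1 of the 6 fits without a library and Klf6 in 0, with adjusted p up to 0.134 and 0.146.

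Genes of protein folding in the endoplasmic reticulum (ER) were mostly a little higher. Of 28 tested, 24 had a higher mean (85.7%, against 53.4% of all genes tested), 6 with PD16 libraries all above PD15 (21.4%, against 9.97%) and 0 all below, and Herpud1 was the called gene. The median of 0.083 rested on single libraries, falling to 0.021 without PD15 replicate 2 and reaching 0.17 without PD16 replicate 3. Herpud1, which helps to remove misfolded proteins, rose from 17.9, 19.5 and 17.9 to 27.3, 24.1 and 25.2 FPKM (log2 change 0.45, adjusted p = 0.0299). Derl3, part of the same removal pathway but in no list, rose from 27.8, 27.5 and 28.3 to 45.5, 44.9 and 38.3 FPKM (log2 change 0.60, adjusted p = 0.0216). The abundant chaperone Hspa5 had 391 ± 66.0 FPKM at PD15 and 432 ± 61.1 at PD16 (SD, n = 3), a difference within the spread. Herpud1 kept its call in 1 of the 6 fits without a library and Derl3 in 2. Cytosolic heat shock proteins had 15 of 18 higher means (median 0.12, 0.076 without PD15 replicate 2) and no called member, with 2 at an unadjusted p under 0.05. In the fit without PD15 replicate 2, 1 of them was called higher.

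Among the largest called protein-coding rises were Pcna-ps2, Trim12c, Lims2, Ramp3 and Tmem182. Lims2, an adaptor of integrin adhesion, rose from 3.56 ± 0.789 to 10.5 ± 1.20 FPKM (mean ± SD, n = 3, log2 change 1.34, adjusted p = 0.0205), with the call lost without PD15 replicate 1 or PD16 replicate 3. Pcna-ps2, by its name a pseudogene of the replication clamp Pcna though typed as coding, went from 2.97, 2.74 and 2.82 to 28.4, 14.8 and 8.57 FPKM, while Pcna itself had 97.9 and 91.8 (-0.099, -0.35 to 0.15). Trim12c, one of several close copies, went from 1.45, 1.44 and 3.34 to 8.11, 6.40 and 8.96 FPKM, and its PD14 libraries were at 8.65, 4.80 and 4.11. For both the level may depend on how reads were shared with similar genes, which was not tested. Pcna-ps2 and Trim12c each kept the call in 1 of the 6 fits without a library (adjusted p = 0.0448 and 0.0448, up to 0.137 and 0.143).

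Peptide and vessel signals were also among the rises. Ramp3, which forms adrenomedullin receptors with the calcitonin receptor-like receptor, rose from 2.56, 2.62 and 2.65 to 10.1, 4.66 and 6.98 FPKM (log2 change 1.14, adjusted p = 0.0479). Gal, the neuropeptide galanin, rose from 0.938, 0.944 and 0.978 to 3.77, 2.41 and 2.26 FPKM (log2 change 0.94, adjusted p = 0.0299), at an estimated 17.7 fragments in its lowest library, and Angpt4, a ligand of the endothelial receptor TIE2, rose by a log2 change of 0.73 (adjusted p = 0.0294). All 3 were low, their PD16 libraries all exceeded the PD15 libraries, and the calls held in 1, 3 and 2 of the 6 fits without a library. The matrix genes Adamts5, a protease of versican and aggrecan, Mfap5, a microfibril protein, Plod2, a collagen cross-linking hydroxylase, the collagen receptor Itga2 and the proteoglycan Sdc3 had log2 changes of 0.84, 0.51, 0.46, 0.44 and 0.41. Plod2 was the most abundant of these, at 55.0, 56.1 and 63.1 FPKM at PD15 and 85.3, 75.1 and 79.9 at PD16. Adamts5, Mfap5 and Sdc3 were the called members of the lists of matrix proteases, of collagens and elastic fibres and of proteoglycans, while Plod2 and Itga2 stand in none. Of the 5, Itga2 kept its call in 3 of the 6 fits without a library and the others in 0 to 2. In the list of collagens and elastic fibres, 23 of 34 genes had a higher mean (median 0.049, 0.017 without PD16 replicate 2).

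Metabolic genes that rose were Glul, glutamine synthetase, from 36.6, 40.1 and 35.5 to 50.6, 52.9 and 56.3 FPKM (log2 change 0.50, adjusted p = 0.0184), Bcat1, which deaminates branched-chain amino acids, Cth, which makes cysteine, the fatty acid receptor Cd36, the ER acetyl-CoA transporter Slc33a1, the lysosomal galactosylceramidase Galc and Nos2, the inducible nitric oxide synthase. Their log2 changes were 0.62 for Bcat1, 0.50 for Cth, 0.54 for Cd36, 0.42 for Slc33a1, 0.38 for Galc and 0.57 for Nos2. Slc33a1 shares 32% of its exon bases with a gene on the other strand. Glul kept its call in 5 of the 6 fits without a library, all but that without PD15 replicate 1, and the other 6 in 0 to 2. Fam210a, a mitochondrial protein, rose from 14.1, 15.4 and 15.4 to 23.2, 22.4 and 21.5 FPKM (log2 change 0.55, SE 0.056, adjusted p = 0.00569) and held in every alternative, but shares 28.5% of its exon bases with Ldlrad4 on the other strand.

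The remaining protein-coding rises were Tmem182, Rhobtb1, Tex14, Metrnl, Fam46a, Fam78a, H2-M3, Zmat1, Eya3, Arhgef6, Mkx, Ivns1abp, Rasl11a, Zfp385b, Fhl2 and Atp10a, with log2 changes from 0.34 for Atp10a to 1.14 for Tmem182, and the predicted or unnamed genes AC125149.4, Gm21887, Gm9961 and 1110032F04Rik, from 0.94 to 1.51. Ivns1abp, an actin-associated kelch protein, was the most abundant of them, at 177, 159 and 177 FPKM at PD15 and 245, 219 and 231 at PD16. Metrnl, a secreted cytokine-like protein, rose from 43.1, 46.4 and 47.3 to 74.4, 75.5 and 69.6 FPKM (adjusted p = 0.0205), and Tex14, which builds the bridges between germ cells, rose from 2.86, 3.40 and 3.76 to 7.33, 5.44 and 5.97 FPKM (adjusted p = 0.0306) while the oocyte markers were lower. These 20 genes kept their calls in 0 to 4 of the 6 fits without a library, apart from Gm9961 and AC125149.4, which kept them in all 6. The called genes outside the rule for named genes were picked for mention after their values had been seen.

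Markers of other cell types showed small shifts. None of the theca and interstitial, smooth muscle and pericyte, macrophage, endothelial or surface epithelium markers was called, with 3, 4, 0, 2 and 0 higher and 0, 0, 0, 1 and 3 lower at an unadjusted p under 0.05. Smooth muscle and pericyte markers had 14 of 16 higher means, with a median of 0.18 that ran from 0.086 without PD16 replicate 2 to 0.23 without PD16 replicate 1, and Acta2, smooth muscle actin, had 246 ± 39.2 FPKM at PD15 and 297 ± 43.9 at PD16 (SD, n = 3). Macrophage and antigen presentation markers had 14 of 16 higher means (median 0.14, 0.063 without PD15 replicate 1 to 0.22 without PD15 replicate 3). Theca and interstitial markers had 13 of 17 (0.081, 0.047 without PD16 replicate 1 to 0.12 without PD15 replicate 1), and 1 was called higher without PD16 replicate 2. Stromal fibroblast markers, with Mfap5 called, had 14 of 18 (0.078, 0.020 without PD15 replicate 1 to 0.11 without PD16 replicate 1). Surface epithelium markers had 11 of 13 lower means (-0.093, and -0.21 without PD15 replicate 1) and endothelial markers were even at 10 of 20. Red blood cell markers varied most between libraries, with summed FPKM of 48.0, 51.7 and 64.7 at PD15, 91.5, 117 and 61.7 at PD16 and 107, 136 and 149 at PD14, and Hba-a1, alpha globin, had a log2 change of 0.82 (adjusted p = 0.139). The part of blood content in the other changes was not tested.

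The study asked how tight junctions, ion pumps, aquaporins and C-type natriuretic peptide (CNP) signalling take part in antrum formation, and by PCR it measured transcripts of these groups together with those of FSH response and steroid enzymes, glucose use, mTOR complex 1, the cell cycle and hyaluronan matrix. Of 54 transcripts in that whole panel, 43 were tested here and none was called in limma, with 4 higher and 3 lower at an unadjusted p under 0.05 and log2 changes from -0.42 to 0.49 (median 0.010). Nppc, which encodes CNP, had 18.6 ± 0.0827 FPKM at PD15 and 16.9 ± 2.29 at PD16 (SD, n = 3, log2 change -0.14, 95% interval -0.43 to 0.15), and its receptor Npr2 had 22.7 ± 4.17 and 28.6 ± 1.73 (0.33, 0.046 to 0.61, adjusted p = 0.271). The clearance receptor Npr3 had 2.63 and 1.76 FPKM (-0.40, -0.64 to -0.16). Atp1b1, a beta subunit of the sodium pump, had 19.3 and 23.6 FPKM (0.28, 0.036 to 0.52). Of the junction genes, Cldn4 came closest to the threshold, with 8.63, 8.17 and 7.65 FPKM at PD15 and 5.27, 6.16 and 6.08 at PD16 (-0.42, -0.60 to -0.24, adjusted p = 0.0545), and Tjp1 was level (0.027, -0.15 to 0.20). The 4 aquaporin genes tested had log2 changes from -0.36 to 0.37, with 2 higher and 2 lower means and none called. In limma 0 were higher and 1 lower at an unadjusted p under 0.05. Among them the water channel Aqp1 had a log2 change of -0.15 (-0.33 to 0.039). Mtor and Rptor, the kinase and scaffold of mTOR complex 1, had -0.10 (-0.27 to 0.073) and -0.061 (-0.20 to 0.073). These intervals are for the whole ovary and are not adjusted for the number of genes.

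**Figure D4:**
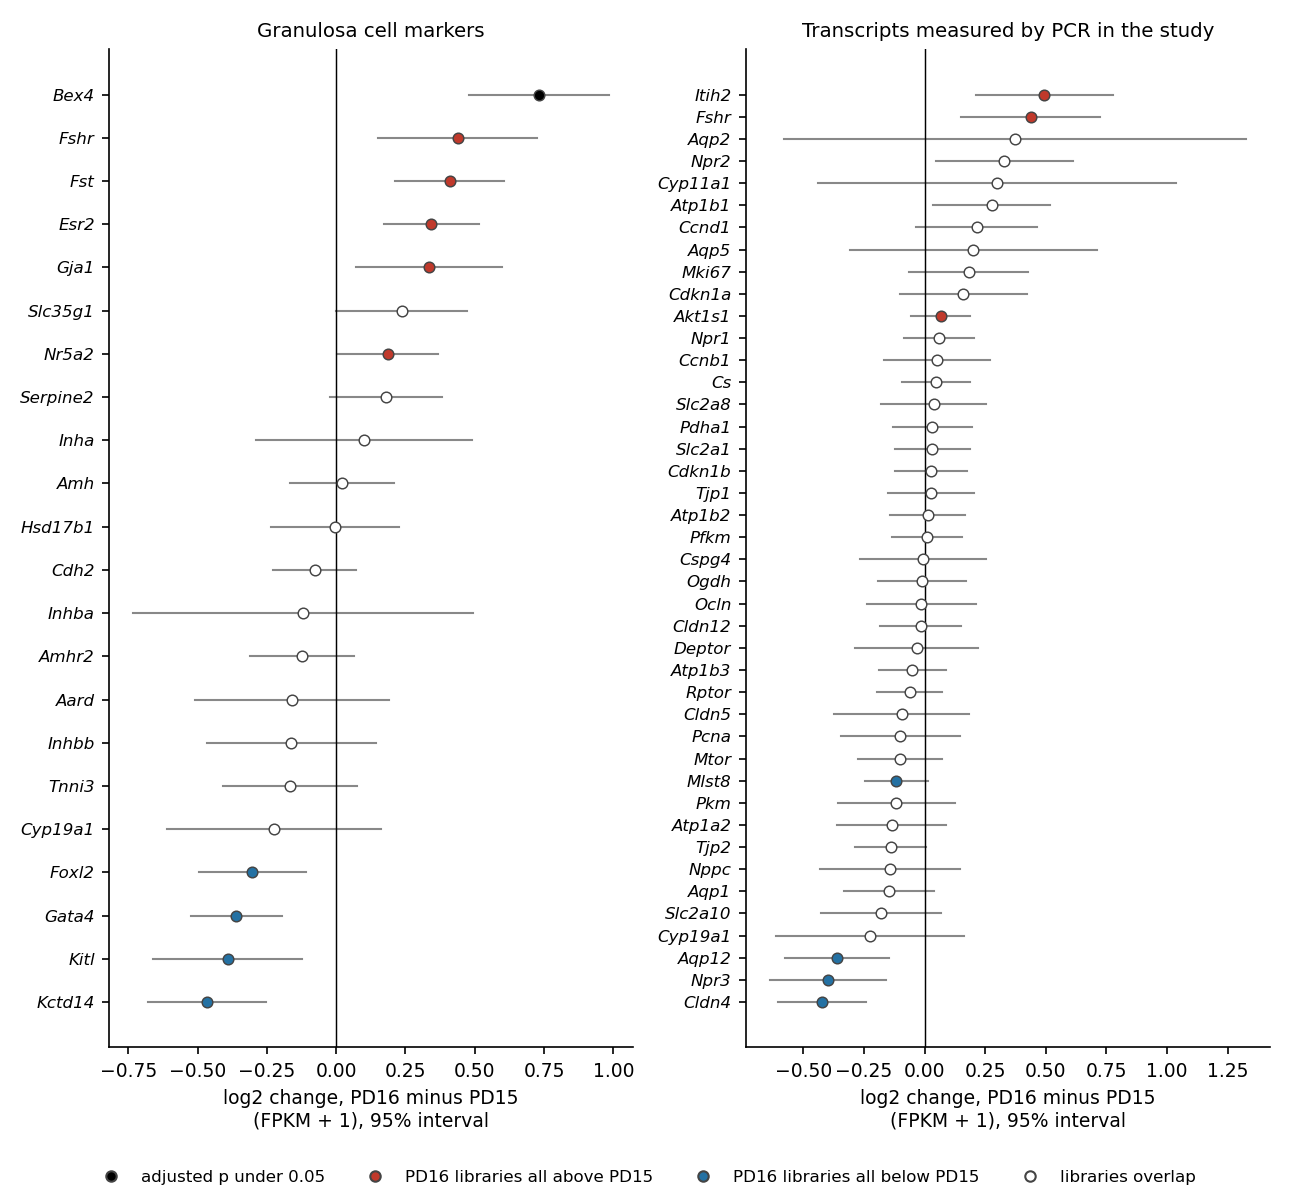
Log2 change from PD15 to PD16 with its 95% interval for the 22 granulosa cell markers (left) and for 42 of the 43 tested transcripts of the PCR panel (right). Bex4 on the left is the only called gene, and most intervals of the right panel span 0.

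Most mitosis genes had a slightly higher mean at PD16, and genes of DNA replication were mixed. Of 42 mitosis genes, 39 had a higher mean at PD16 (median 0.14, 0.071 without PD16 replicate 2 to 0.22 without PD15 replicate 2) and none was called, with 5 higher and 0 lower at an unadjusted p under 0.05. Top2a, which untangles DNA in dividing cells, had 34.4, 41.5 and 38.9 FPKM at PD15 and 51.7, 49.8 and 34.3 at PD16, and these overlapped. DNA replication genes had 25 of 41 higher means (median 0.016) and none called, with 0 higher and 1 lower at an unadjusted p under 0.05, and the count of higher means ran from 12 to 37 as 1 library was left out. For mitosis that range was 33 to 39. Splicing regulators had 37 of 44 higher means (median 0.065, 0.064 to 0.11 with 1 library left out), and Hnrnpa1, the most abundant, had 453, 438 and 435 FPKM at PD15 and 498, 476 and 464 at PD16 without overlap (log2 change 0.12, adjusted p = 0.570). Histone genes had 11 of 13 lower means (median -0.24, -0.13 without PD15 replicate 2), none called, among them Hist1h1c, with 20.7, 22.7 and 12.9 and 10.4, 13.1 and 12.2 FPKM. Nuclear genes of oxidative phosphorylation, with Atp5e as the called gene, and cytosolic ribosomal proteins had 29 of 70 and 51 of 89 higher means (medians -0.014 and 0.017). These counts too rested on single libraries, with 16 to 52 and 28 to 72 higher as 1 library was left out and medians of either sign, the highest 0.069 and 0.12 without PD15 replicate 3.

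**Figure D5:**
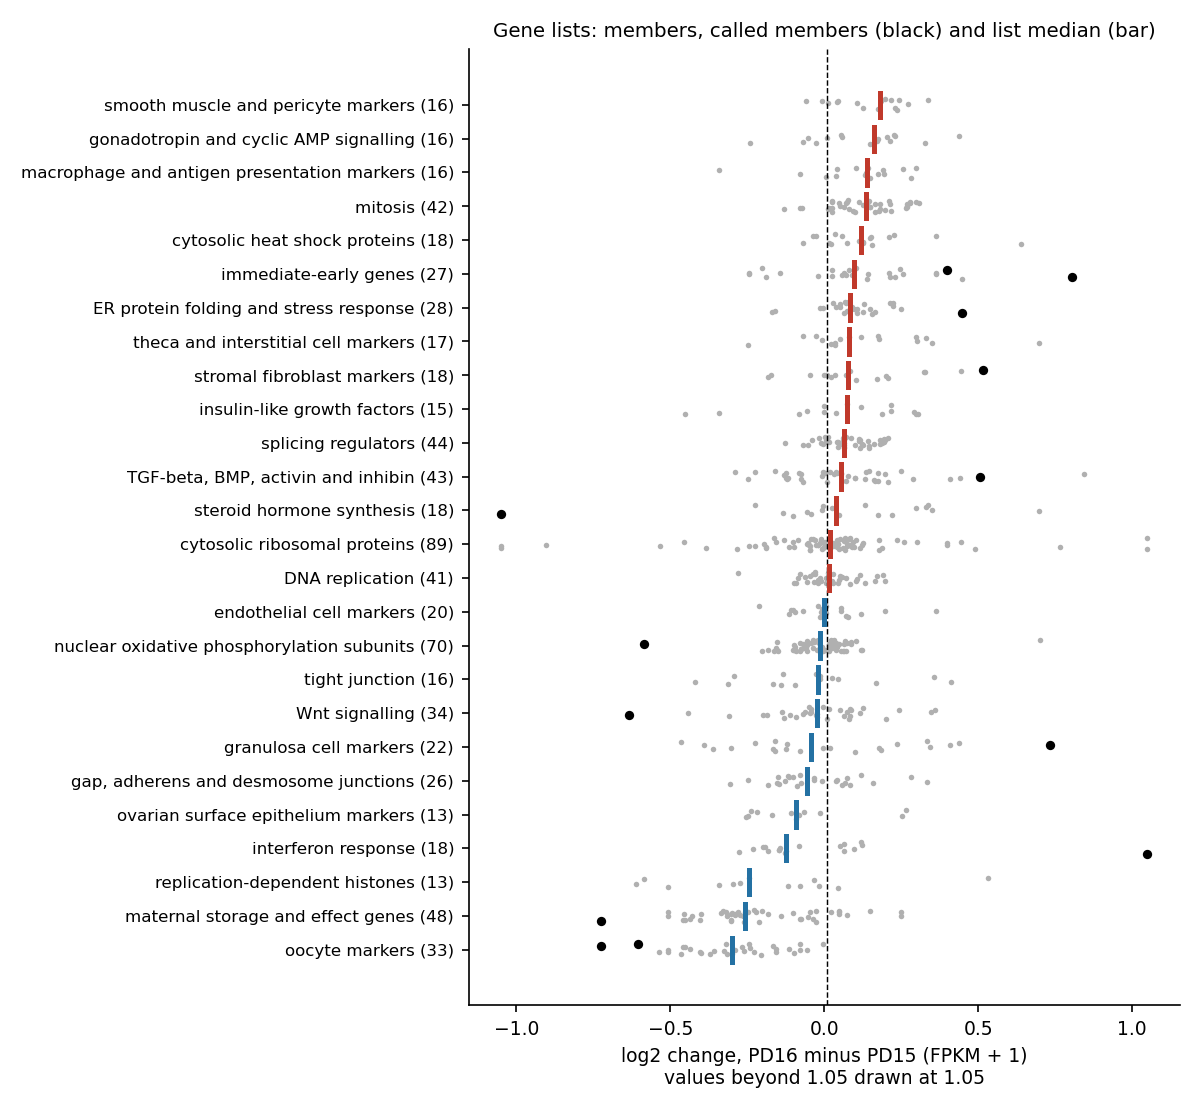
Log2 change from PD15 to PD16 of the tested members (grey points; black where called) of 26 gene lists, with the list median as a bar, the number of members tested in brackets and the median of all genes as a dashed line, and members beyond the ends of the axis drawn at its ends. The oocyte and maternal storage lists lie farthest to the left (medians -0.30 and -0.26).

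The lists described next held no called gene. Junction genes outside tight junctions had 16 of 26 lower means (median -0.056, -0.012 without PD16 replicate 1), and mTOR complexes and regulators 19 of 39 higher ones (-0.0038). Insulin-like growth factor genes had 9 of 15 higher means (0.075, 0.13 without PD16 replicate 2), with 4 higher and 1 lower at an unadjusted p under 0.05 in limma. COPI and COPII vesicle coats, which carry secreted proteins, had 22 of 27 higher means (0.049), the tricarboxylic acid cycle 21 of 29 (0.048), cholesterol synthesis and uptake 16 of 23 (0.047) and the circadian clock 12 of 18 (0.037). With 1 library left out, the lowest medians of these lists were 0.023, 0.021, 0.028 and 0.0064, in that order. Notch and hedgehog signalling had 6 of 16 and 5 of 13 higher means, glycolysis 13 of 25, basal lamina 11 of 22 and mitochondrial genome transcripts 7 of 13. Without 1 library or another the medians of the mTOR, Notch, hedgehog, glycolysis, basal lamina and mitochondrial lists had another sign. In each of these lists at most 4 members were higher and 2 lower at an unadjusted p under 0.05.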

How the data were processed

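RNA of Kunming mouse ovaries was measured by RNA-seq at PD14, PD15 and PD16, 3 libraries a day. The study prepared libraries from 1 µg of RNA with the NEBNext Ultra RNA kit, which does not mark strand. Per the submitters' processing notes, reads were aligned with HISAT2 (2.0.5) to mm10. The counter, its handling of multiply mapped reads and the annotation are not given in the sources used here. The deposited values are FPKM, normalized by the authors to exon length and mapped fragments, with no counts beside them.

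Genes with a mean FPKM above 1 at PD15 or PD16, the study's limit for an expressed gene, were tested with limma (3.58.1, R 4.3.3) on log2(FPKM + 1), two-sided, with an intensity trend. A mean per day was fitted to all 9 libraries, so that PD14 entered only through the spread, which has 6 residual degrees of freedom. P-values were adjusted by Benjamini-Hochberg over all genes tested, and a gene was called at an adjusted p under 0.05. The log2(FPKM + 1) scale understates changes of low genes. Libraries were called apart, or not overlapping, where all 3 of a day lay beyond all 3 of the other. An exact permutation test of 3 against 3 libraries cannot go below 0.10 and was not used. The scripts were tested on simulated data.

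Named genes were the 15 largest called protein-coding rises and falls with a name that is not predicted, called members of 51 gene lists, up to 4 abundant members of each list and the transcripts that the study measured by PCR in ovaries. The members and lists were chosen with earlier results of these data known. Coordinates and exon overlaps are from GENCODE M21, promoters from RefSeq (GRCm38.p6), on the mm10 assembly. Alternatives were other pseudocounts, filters, scalings, moderation, the 6 libraries alone, a replicate block and each library left out. Recounting the lists without each library was added after seeing the data. Some genes that the rule names are not reported here.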

Additional observations from a re-analysis of the deposited data

How the results depend on the processing

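No call of the 251 named genes changed direction under the 20 alternatives. The libraries of the called protein-coding genes did not overlap, so leaving out a library could not reverse them. Of 4988 values of these genes under an alternative, 4679 stayed on the same side of the threshold, 300 lost the call and 9 gained one, while 132 values of uncalled genes had another sign. The counts moved more. With a mean FPKM above 0.1 as the filter there were 27 rises and 23 falls (20 and 8 protein-coding), and with no filter 10 and 11 (7 and 4), as more genes were tested, 23913 and 32732. In the 6 libraries alone 33 protein-coding genes rose. Leaving out 1 library of any day gave 8 to 80 rises and 6 to 66 falls (5 to 58 and 3 to 38 protein-coding). The lowest counts came without PD15 replicate 1, and without PD14 replicate 3 there were 35 rises and 24 falls (23 and 13 protein-coding). The remaining pseudocounts, filters, scalings and moderations gave counts within 1.5 times those reported, with the median of all genes moved by less than 0.1 on the log2 scale. Of 1018 list medians under an alternative, 28 moved by more than the spread between libraries.

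With the replicate number as a replicate block there were 30 rises and 27 falls (20 and 10 protein-coding). Same-numbered PD15 and PD16 libraries had correlations of their deviations of -0.15, 0.021 and -0.19 across genes, so the numbers were not taken to pair the samples. With 3 libraries a day, the smallest called change of a protein-coding gene was 0.34 on the log2 scale, and for genes at a few FPKM the fragments behind a library are few.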

Other observations

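Of the 117 called genes, 41 were of other kinds than protein-coding, 18 higher and 23 lower at PD16, among them 13 pseudogenes and 15 loci that carry no gene name. The largest rise of all was that of the processed pseudogene Gm11585 (chromosome 11), which was listed at 0.138, 0 and 0.0612 FPKM in the PD15 libraries and at 17.7, 9.37 and 7.81 in the PD16 libraries, with PD14 at 5.16, 6.84 and 10.6 (adjusted p = 0.00143, limma), and its call held in all 6 fits without a library. The antisense transcript Gm45260 (chromosome 4) rose from 2.82, 3.02 and 3.60 to 11.3, 11.1 and 11.8 FPKM, with PD14 at 1.88, 3.54 and 3.44 (log2 change 1.58, adjusted p = 0.00495), and also held in all 6. The library kit does not mark strand, so its reads cannot be told from those of any overlapping gene on the other strand. The pseudogene Gm44126 fell from 24.7, 16.7 and 23.2 to 4.08, 3.51 and 6.35 FPKM (log2 change -2.01, adjusted p = 0.0174). Pseudogenes of ribosomal proteins went both ways, with Rpl3-ps1 at 0.82, Rps25-ps1 at 1.02 and Rpl36a-ps1 at -0.61, while the 89 cytosolic ribosomal protein genes had a median log2 change of 0.017. Reads of a processed pseudogene and its parent gene are nearly alike, and how they were assigned was not tested. The long noncoding transcript RP24-337D17.1 fell from 66.9, 59.7 and 63.7 to 35.6, 30.0 and 35.6 FPKM (log2 change -0.89, adjusted p = 0.0417), and Iglc3, an immunoglobulin light chain constant region, from 2.07 ± 0.0809 to 0.772 ± 0.160 FPKM (SD, n = 3, log2 change -0.79, adjusted p = 0.0216), with the calls held in 0 and 2 of the 6 fits without a library. These genes were chosen after their values were seen.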
